A study of Mus musculus with 3 samples.

Results

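Transcripts of 6 S100 genes, S100a4, S100a6, S100a8, S100a9, S100a10 and S100a11, were followed through the cells of a mouse mammary tumour and through the states of its neutrophils. They were picked by symbol, each matched 1 row of the deposited gene lists, and they are 6 of 28692 genes counted. The study holds 3 single-cell RNA libraries (replicates 1 to 3) of 1 group: live cells positive for CD45, a surface protein of leukocytes, and negative for DAPI, a dye that stains dead cells. They were sorted from tumours of 0.7 to 1 cm, grown for 4 weeks after cells of 2208L, a p53-deficient mouse mammary tumour line, had been placed in the mammary gland. No library was treated and none came from tissue without a tumour, so every comparison below is between cell classes within the same 3 libraries. The labels name 1 cell line and give no age or strain, and do not say whether the libraries came from separate animals. They list tumour as the cell type of these leukocytes, and mention a 5′ kit in one place and a 3′ method in another. The p-values therefore measure the spread between 3 libraries, which may be technical.

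S100 proteins are small calcium-binding proteins, most of which work as dimers. S100a8 and S100a9 pair to form calprotectin, which fills the cytosol of neutrophils, binds zinc and manganese, and acts as an alarmin, a danger signal read by Tlr4 and Ager (RAGE), once it leaves the cell. The other members are mostly known for work inside cells: S100a4 binds non-muscle myosin and marks motile and mesenchymal cells, S100a6 (calcyclin) binds annexins and Cacybp, S100a10 forms a complex with annexin A2 at membranes, and S100a11 binds annexin A1. The word alarmin thus fits S100a8 and S100a9 best.

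Cell classes were set by genes other than S100 genes. A barcode counted as a neutrophil with at least 1 UMI (a counted molecule) of Csf3r or Cxcr2, as a macrophage with C1qa, as a T cell with Cd3e, as epithelial with Epcam, as a monocyte with both Ly6c2 and Ccr2, as a conventional dendritic cell (cDC) with Xcr1, Clec9a or Cd209a and as an NK cell with Ncr1, and in each case with no UMI of another class's genes. This gave 3091 neutrophils (704, 1171 and 1216 in replicates 1 to 3), 2061 T cells, 1542 macrophages, 358 monocytes, 289 Epcam-gated barcodes, 257 NK cells and 154 cDCs, while 2180 barcodes carried genes of several classes and 4171 carried none. Clusters built without any S100 gene placed 96.3% of the gated neutrophils and 97.0% of the gated T cells in clusters with the same name, but 79.8% of macrophages, 56.5% of cDCs and 47.4% of Epcam-gated barcodes. Of the 289 Epcam-gated barcodes, 132 lay in cDC clusters, 129 of the 1542 gated macrophages lay in neutrophil clusters, and 60 of the 154 gated cDCs lay in the monocyte cluster. Values are therefore also given for gated barcodes that lie in a cluster of the same name, as a description without a test. In the other direction, neutrophil clusters held 6182 barcodes, of which 2977 were gated neutrophils and 2786 carried no gene of any class. The deposited libraries held 4424, 6036 and 3876 barcodes with 9846404, 15259236 and 9445914 UMIs, the median neutrophil had 1017 UMIs against 1522 in T cells and 3959 in macrophages, and 25 to 37 barcode sequences were shared by any pair of libraries.

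The 6 genes lie on chromosome 3 (GRCm38, the assembly behind mm10, GENCODE annotation) in a pair of groups. S100a4 (90603771 to 90606045), S100a6 (90612882 to 90624181) and S100a8 (90668978 to 90670035) lie on the plus strand, and S100a9 (90692632 to 90695721) lies on the minus strand, 22.6 kb from S100a8. S100a11 (93520488 to 93526287) and S100a10 (93555080 to 93564643) lie 28.8 kb apart and 2824.8 kb from S100a9. The 250 bases before the annotated start of S100a8 (chr3:90668821-90669070, plus strand), S100a9 (chr3:90695722-90695971, minus strand), S100a6 (chr3:90612644-90612893, plus strand) and S100a11 (chr3:93520246-93520495, plus strand) are shown, from RefSeq on GRCm38.p6, because these members moved together across neutrophil states. Capitals mark matches, on either strand, to the core promoter element TATAAA, to the C/EBP-type site TTGCNNAA, to the PU.1-type site GAGGAA, which reads TTCCTC on the other strand, and to the AP-1 site TGANTCA.
S100a8: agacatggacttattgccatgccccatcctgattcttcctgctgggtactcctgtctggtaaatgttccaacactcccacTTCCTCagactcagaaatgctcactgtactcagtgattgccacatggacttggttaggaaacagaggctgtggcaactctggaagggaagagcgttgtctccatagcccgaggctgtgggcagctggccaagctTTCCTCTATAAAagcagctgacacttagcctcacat
S100a9: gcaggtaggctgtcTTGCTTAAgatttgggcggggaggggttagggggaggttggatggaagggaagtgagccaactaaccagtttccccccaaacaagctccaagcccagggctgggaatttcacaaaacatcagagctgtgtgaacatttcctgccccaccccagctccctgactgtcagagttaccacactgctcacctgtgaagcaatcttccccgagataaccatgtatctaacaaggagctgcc
S100a6: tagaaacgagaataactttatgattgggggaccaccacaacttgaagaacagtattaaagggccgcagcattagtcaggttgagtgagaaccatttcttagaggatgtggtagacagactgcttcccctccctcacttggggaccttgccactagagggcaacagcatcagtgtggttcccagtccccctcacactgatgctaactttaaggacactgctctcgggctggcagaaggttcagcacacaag
S100a11: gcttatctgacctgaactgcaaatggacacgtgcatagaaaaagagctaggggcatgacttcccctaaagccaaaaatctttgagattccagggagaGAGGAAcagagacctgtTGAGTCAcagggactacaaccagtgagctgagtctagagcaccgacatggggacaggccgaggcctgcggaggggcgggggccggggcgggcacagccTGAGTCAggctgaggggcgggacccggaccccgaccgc
Starts are those of RefSeq. For S100a8, S100a6 and S100a11 they lie inside the GENCODE spans given above, so the printed bases of these genes run into those spans. The search also took in the 50 bases after each start, 300 bases in all. Of the 6 members 5 had an entry in the promoter set used here. S100a10 had none in that set, so its promoter was not searched. S100a8 held TATAAA 30 bases before its start and TTCCTC 170 and 36 bases before it, the latter directly followed by the TATAAA. S100a9 held TTGCTTAA 236 bases before its start, and TATAAA from base 1 of the transcript as annotated. S100a11 held GAGGAA 153 bases before its start and TGAGTCA at 136 and 38 bases, and S100a6 held none of the 4. S100a4, whose sequence is not shown, held TATAAA 31 bases before its start and TTCCTC from base 20 of the transcript as annotated. Of 32851 mouse promoters in windows of that length, 13.6% held TATAAA, 10.8% the C/EBP-type letters, 28.3% the PU.1-type letters and 7.81% the AP-1 letters. A match is a description of the sequence and not a bound site.

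S100a8 and S100a9 were transcripts of neutrophils. S100a8 stood at 27582, 30061 and 28084 CPM (counts per 1e6 UMIs) in the neutrophils of replicates 1 to 3, a mean of 28576 ± 1311 (SD, n = 3). The same gene reached 671, 603 and 796 CPM in gated macrophages and 338, 247 and 255 CPM in T cells. S100a9 stood at 31410, 34528 and 35596 CPM in neutrophils (mean 33845 ± 2175). It stood at 784, 742 and 973 CPM in macrophages and at 516, 326 and 295 CPM in T cells. Over whole neutrophil clusters, gated or not, S100a8 stood at 23589, 26766 and 23820 CPM and S100a9 at 27751, 31946 and 30847 CPM. Every neutrophil value lay far above every value of the other classes for both genes, and of all UMIs in the named clusters, 91.0% ± 4.1 of S100a8 and 90.3% ± 4.7 of S100a9 came from neutrophil clusters. Among the other classes of S100a8, from pDCs (plasmacytoid dendritic cells, 62 barcodes) and macrophages down to B cells (61 barcodes), the ranges over the 3 libraries overlapped from each class to the next. The macrophage range (603 to 796 CPM) lay wholly above those of monocytes, T cells, NK cells, Epcam-gated barcodes and B cells.

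The level in T cells was taken as a reference for free RNA in the droplets, since T cells are not known to make calprotectin. It was not uniform: single T-cell barcodes held up to 7.44%, 9.97% and 3.52% of their UMIs from the pair in replicates 1 to 3. In T cells that also lay in a T-cell cluster, S100a8 stood at 257, 200 and 255 CPM. How much of the T-cell level came from free RNA was not tested. With every barcode thinned to 600 UMIs, 85.8% ± 3.5 of neutrophils and 8.48% ± 0.77 of T cells had an S100a8 UMI, and 88.5% ± 2.2 and 10.7% ± 1.8 had an S100a9 UMI. Without thinning the S100a8 shares were 86.8%, 92.6% and 88.4% of neutrophils and 17.0%, 22.0% and 20.5% of T cells. Monocytes (11.7% ± 4.2 for S100a8), NK cells (8.14% ± 1.04) and Epcam-gated barcodes (9.29% ± 3.82) differed from T cells by less than the spread between libraries. Whether their UMIs came from free RNA was not tested. In monocytes the ratio of S100a8 to S100a9 UMIs was 0.573, 1.02 and 1.89, and the last (1.35 to 2.68, 95% counting interval) lay above the neutrophil ratio of that library, 0.789. Gated macrophages stood above it at 17.6% ± 2.3, and those in a macrophage cluster at 10.4% ± 1.9, against 7.93% ± 0.53 in T cells that lay in a T-cell cluster. In counts per barcode, S100a8 and S100a9 together gave 1.26, 1.09 and 1.14 UMIs in T cells and 66.1, 73.3 and 83.6 in neutrophils. Other neutrophil transcripts (Il1r2, Clec4d, Mmp9, G0s2, Hdc and Retnlg, summed) gave 0.214, 0.205 and 0.187 UMIs per S100a8 and S100a9 UMI in neutrophils, 0.298, 0.301 and 0.341 in T cells and 0.251, 0.274 and 0.232 in macrophages.

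**Figure D1:**
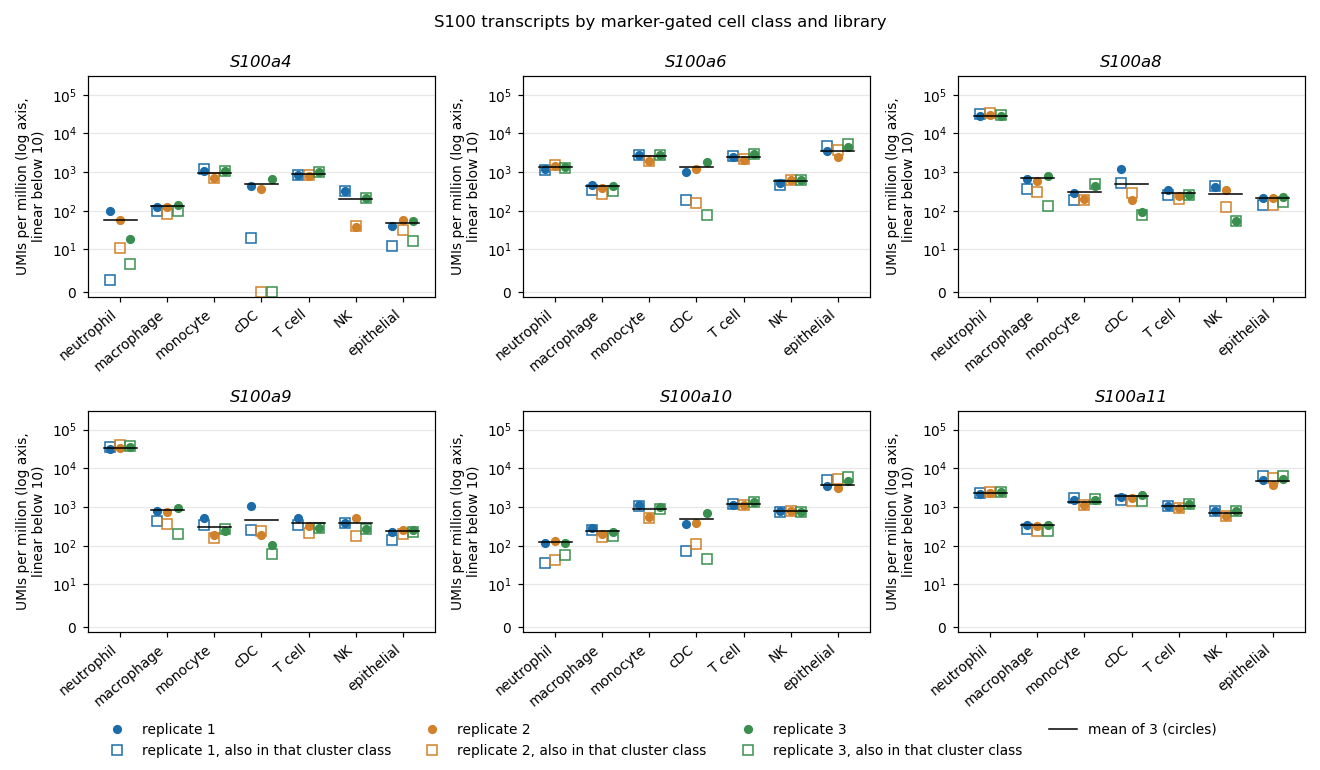
CPM (log axis, linear below 10) of each of the 6 genes in 7 cell classes, 1 circle per library with the mean of 3 as a line, and squares for the gated barcodes that also lie in a cluster of the same name. S100a8 and S100a9 stand at 27582 or more in neutrophils and at 1201 or less in the other 6 classes, while S100a4 in neutrophils falls from 58.2 to 6.92 on average once cluster and gate must match.

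S100a4, the myosin-binding member, had the opposite pattern, with its highest levels in monocytes (1050, 689 and 1049 CPM) and T cells (818, 802 and 1024 CPM), whose ranges overlapped. It stood at 123, 125 and 143 CPM in macrophages and at 96.3, 59.5 and 18.8 CPM in gated neutrophils. The neutrophil value was 3.0, 11.2 and 6.53 CPM in the 2977 gated neutrophils that lay in a neutrophil cluster, which held 25 S100a4 UMIs in all. T-cell transcripts accompanied it: 1.21, 2.15 and 3.93 UMIs of the T-cell markers Cd3d, Cd3g, Trac, Trbc2 and Cd2 were counted per S100a4 UMI in gated neutrophils, against 5.36, 6.09 and 4.79 in T cells. Macrophage markers (7 genes, C1qa at 0 by the gate) summed to 2222, 1792 and 645 CPM in gated neutrophils, in the order of S100a4 over the 3 libraries, and T-cell markers to 117, 128 and 73.9 CPM. Monocyte markers summed to 281, 292 and 157 CPM in gated neutrophils. Of the gated neutrophils, 40 lay in the monocyte cluster, 38 in T-cell clusters and 17 in macrophage clusters. Monocytes themselves carried macrophage markers at 10576, 6936 and 10469 CPM, so these markers do not separate macrophages from monocytes. The part of T cells, macrophages or monocytes in the neutrophil value was not tested. Of all S100a4 UMIs in named clusters, 50.6% ± 1.8 came from T cells, 29.2% ± 4.8 from monocytes, 14.9% ± 3.1 from macrophages and 0.90% ± 0.12 from neutrophils.

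S100a6, S100a10 and S100a11 were highest in the Epcam-gated barcodes. S100a10, the annexin A2 partner, stood there at 3482, 3100 and 4704 CPM, above T cells (1163, 1113 and 1349 CPM). It was low in macrophages (281, 206 and 233 CPM) and lower in neutrophils (120, 129 and 119 CPM), with no overlap between these 4 classes. In same-named clusters S100a10 stood at 249, 171 and 184 CPM in macrophages and at 36.0, 43.2 and 58.1 CPM in neutrophils. S100a11, the annexin A1 partner, stood at 4880, 3669 and 5310 CPM in Epcam-gated barcodes, at 2128, 2277 and 2394 CPM in neutrophils and at 343, 331 and 351 CPM in macrophages. S100a6 overlapped between Epcam-gated barcodes (3533, 2423 and 4398 CPM), monocytes (2839, 1908 and 2846 CPM) and T cells (2506, 2085 and 2931 CPM), while neutrophils (1206, 1470 and 1353 CPM) lay below all 3 and above macrophages (451, 392 and 435 CPM). Thinned shares gave another order for S100a6 and S100a10: monocytes had the highest share with S100a6 (65.7% ± 7.8, T cells 64.6% ± 7.0 and Epcam-gated barcodes 51.9% ± 4.9) and T cells the highest with S100a10 (49.6% ± 3.8, Epcam-gated barcodes 44.4% ± 8.4).

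The Epcam gate was a mixture, which splits these values. The 132 Epcam-gated barcodes with a UMI of Krt8 or Krt18, keratins of simple epithelium, carried S100a10 at 4971, 5255 and 5967 CPM, S100a11 at 6462, 5443 and 6372 CPM and S100a6 at 4601, 3372 and 5260 CPM. The 157 without such a UMI carried S100a10 at 195, 356 and 247 CPM, S100a11 at 1388, 1409 and 1564 CPM and S100a6 at 1175, 1214 and 1356 CPM. The ranges of the keratin-positive and keratin-negative barcodes did not overlap for any of the 3 genes, which was not tested. S100a4 went the other way, at 12.3, 18.3 and 16.5 CPM with keratin and 99.8, 105 and 182 CPM without.

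UMIs summed per class and library were compared with edgeR's quasi-likelihood test over 8199 genes, with the library as a block and p-values adjusted over all of them. Against macrophages, all 6 members passed the test at 0.05, 4 higher and 2 lower in neutrophils, where 59.5% of all genes tested passed (29.5% higher and 30.1% lower). S100a8 was higher by 5.61 ± 0.41 (log2 ± SE, adjusted p = 2.12e-12), S100a9 by 5.57 ± 0.38 (3.29e-13), S100a11 by 2.96 ± 0.11 (2.36e-18) and S100a6 by 1.89 ± 0.16 (2.66e-11). S100a4 (-1.04 ± 0.33, adjusted p = 0.00759) and S100a10 (-0.73 ± 0.18, 0.00083) were lower. Among gated barcodes in same-named clusters the log2 ratio of mean CPM was 6.91 for S100a8 and 6.81 for S100a9 (5.37 and 5.34 over all gated barcodes), and -3.77 for S100a4 (-1.16). The S100a4 call was lost with DESeq2 (adjusted p = 0.0836), with stricter cell filters (0.137) and without replicate 3 (0.144), and that of S100a10 with stricter cell filters (0.077).

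Against T cells all 6 members passed as well, among 60.8% of genes (32.4% higher and 28.5% lower): S100a8 (6.95 ± 0.44), S100a9 (6.78 ± 0.40) and S100a11 (1.32 ± 0.10) were higher in neutrophils, and S100a4 (-3.79 ± 0.32), S100a10 (-3.05 ± 0.18) and S100a6 (-0.64 ± 0.15) were lower. The same split held against monocytes, with 41.3% of genes passing (21.4% higher and 19.9% lower): S100a8 6.85 ± 0.46, S100a9 7.19 ± 0.42, S100a11 1.00 ± 0.11, S100a4 -3.80 ± 0.33, S100a10 -2.52 ± 0.19 and S100a6 -0.62 ± 0.15, the last lost without replicate 1 (adjusted p = 0.0573). Against cDCs 5 of 6 passed, among 41.0% of genes (21.8% higher and 19.2% lower). S100a6 did not (0.17 ± 0.16, adjusted p = 0.428), but 60 of the 154 gated cDCs lay in the monocyte cluster. In same-named clusters S100a6 stood at 189, 155 and 76.9 CPM in cDCs and at 1154, 1489 and 1300 CPM in neutrophils, without overlap and not tested. S100a10 was lower in neutrophils, with log2 estimates from -2.09 to -1.45 over the alternatives. In same-named clusters its ranges overlapped, at 71.7, 108 and 46.1 CPM in cDCs and 36.0, 43.2 and 58.1 CPM in neutrophils. No test was run there. The S100a11 difference of 0.40 ± 0.10 was lost with stricter cell filters (adjusted p = 0.793). For S100a4 (-3.02 ± 0.35) the log2 ratio of mean CPM was -2.86 with classes set by cluster alone, and 0.088 among gated barcodes in same-named clusters, where the 87 cDCs held 3 S100a4 UMIs, all in replicate 1. These contrasts all use the same neutrophil sums and are not independent of each other.

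Against Epcam-gated barcodes 5 of 6 members passed, among 64.8% of genes (31.2% higher and 33.7% lower). S100a8 (7.31 ± 0.46) and S100a9 (7.38 ± 0.42) were higher in neutrophils, and S100a10 (-4.67 ± 0.19), S100a6 (-1.08 ± 0.15) and S100a11 (-0.76 ± 0.10) were lower. S100a4 did not pass (0.36 ± 0.40, adjusted p = 0.452), but was higher in neutrophils by 2.05 ± 0.55 (adjusted p = 0.00168) when Epcam-gated barcodes also needed a keratin UMI. The direction turned in same-named clusters, where neutrophils held 3.0, 11.2 and 6.53 CPM and Epcam-gated barcodes 12.3, 31.9 and 16.5 CPM (log2 ratio of mean CPM -1.55, not tested). Without replicate 1 its estimate was -0.22, and without replicate 3 it passed at 0.94 (adjusted p = 0.0196).

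**Figure D2:**
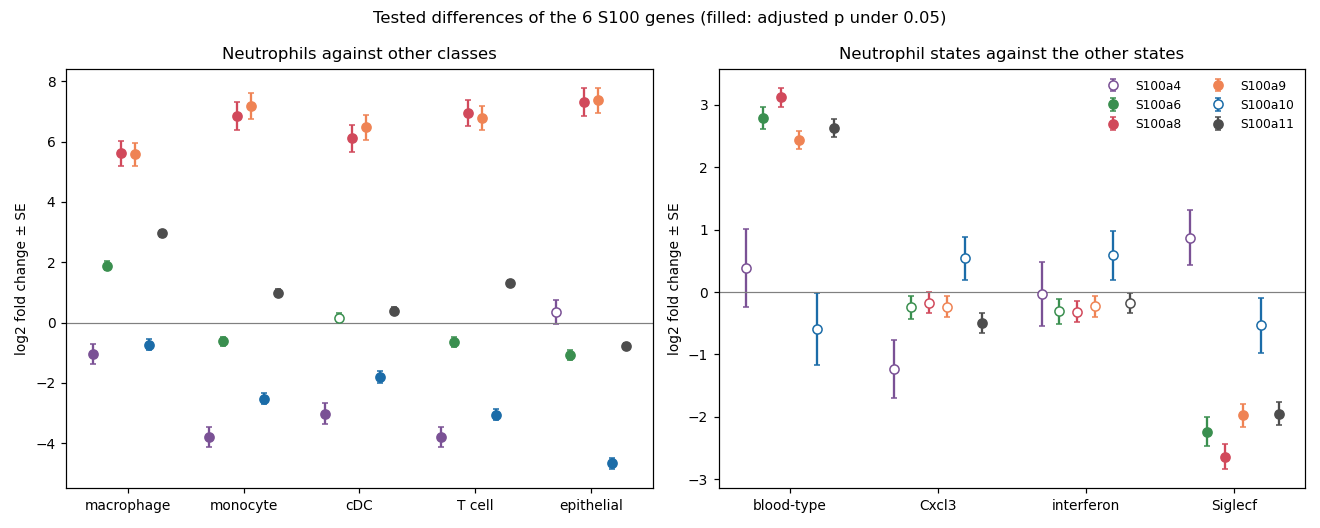
Log2 fold changes ± SE of the 6 genes from edgeR's quasi-likelihood test on sums per library (n = 3), for neutrophils against 5 classes (left) and for 4 neutrophil states against the mean of the other 3 (right), with filled points where the adjusted p was under 0.05. S100a8 and S100a9 lie above 5 in every contrast on the left, and S100a6, S100a8, S100a9 and S100a11 lie above 2 in the blood-type state and below -1.9 in the Siglecf state.

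Monocytes and macrophages, both mononuclear phagocytes, differed in all 6 members, where 14.2% of genes passed (7.05% higher and 7.14% lower). S100a4 (2.76 ± 0.29), S100a6 (2.51 ± 0.16), S100a11 (1.96 ± 0.11) and S100a10 (1.79 ± 0.18) were higher in monocytes, and these 4 calls held under every alternative run. S100a8 (-1.24 ± 0.40, adjusted p = 0.0349) and S100a9 (-1.61 ± 0.37, 0.00245) were lower. The gated macrophages include the 129 barcodes in neutrophil clusters. Among gated barcodes in same-named clusters the log2 ratio of mean CPM was 0.14 for S100a8 and -0.38 for S100a9 (-1.14 and -1.41 over all gated barcodes), and the S100a8 call was lost with at least 2 marker UMIs (adjusted p = 0.648), DESeq2 (0.246), stricter cell filters (0.263), no block (0.0692) and without replicate 2 (0.0658).

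Neutrophils in tumours differ in age and activation, and their states were set here by gene lists without S100 genes. The blood-type state, named for genes of circulating neutrophils, was read from a list with Retnlg and Mmp8 (232 barcodes). The Cxcl3 state was read from Cxcl3, Hilpda and Hcar2 (875). An interferon state was read from Ifit1, Ifit3 and Rsad2 (520) and a Siglecf state from Siglecf and Ltc4s (508). A barcode took the state with the most UMIs, and 896 had none or a tie. States read from Pdpn, Plau and Pla1a (39 barcodes) and from Hspa1a, Hspa1b and Mgarp (21) were too small to test.

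Among the 4 tested states S100a8 was highest in the blood-type state and lowest in the Siglecf state in each library. It stood at 137358, 84723 and 104210 CPM in the blood-type state. It stood at 8327, 11519 and 8104 CPM in the Siglecf state, and in between in the Cxcl3 state (22844, 24852 and 29747 CPM) and the interferon state (21749, 23582 and 28260 CPM), whose ranges overlapped. The Cxcl3 and interferon clusters given below did not overlap for S100a8. S100a9 had the same extremes, at 119061, 70597 and 100361 CPM in the blood-type state and 14423, 18926 and 16639 CPM in the Siglecf state. S100a11 (8678, 5003 and 7923 against 1034, 1157 and 1218 CPM) and S100a6 (4499, 4106 and 4534 against 856, 545 and 310 CPM) were likewise highest in the blood-type state in every library. The blood-type and Siglecf ranges did not overlap for any of these 4 genes.

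In the test over 3007 genes, 4 of 6 members were higher in the blood-type state than in the mean of the other tested states, and none was lower, where 19.4% of genes passed (13.6% higher and 5.85% lower). S100a8 was higher by 3.12 ± 0.15 (adjusted p = 4.32e-16), S100a6 by 2.80 ± 0.18 (9.99e-14), S100a11 by 2.63 ± 0.15 (7.11e-15) and S100a9 by 2.44 ± 0.15 (5.42e-14). S100a4 (0.39 ± 0.63) and S100a10 (-0.59 ± 0.57) did not pass. The median of the 6 was 2.53 against -0.04 over all genes. The 4 calls held under every alternative run. With library totals in place of TMM scaling the median of all genes moved to -0.55 and the calls from 408 higher and 176 lower to 192 higher and 843 lower. Relative to that median S100a8 was still higher by 3.10, S100a6 by 2.79, S100a11 by 2.60 and S100a9 by 2.41.

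In the Siglecf state the same 4 genes were lower, and no member was higher, where 51.3% of genes passed (24.9% higher and 26.4% lower). S100a8 differed by -2.64 ± 0.20 (adjusted p = 5.09e-12), S100a6 by -2.24 ± 0.23 (2.82e-09), S100a9 by -1.98 ± 0.18 (4.64e-10) and S100a11 by -1.95 ± 0.18 (5.10e-10), all passing under every alternative run. With the blood-type state left out the differences were smaller, at -1.87 for S100a8, -1.55 for S100a6, -1.38 for S100a9 and -1.27 for S100a11. They were also smaller with stricter cell filters, at -1.52, -1.33, -1.12 and -1.10. That fit likewise held no blood-type state, which had under 20 barcodes in a library. The effect of the filters alone therefore cannot be read from it. S100a10 (-0.53 ± 0.44, adjusted p = 0.32) and S100a4 (0.87 ± 0.44, 0.0979) did not pass. S100a4 passed, higher, in 5 of 12 alternatives, with estimates from 0.26 to 1.89 and a lowest adjusted p of 0.0126, while the Siglecf-state barcodes inside neutrophil clusters held 3 S100a4 UMIs. With library totals the median of all genes was 0.57, the calls moved from 750 higher and 794 lower to 1450 higher and 439 lower, and S100a8 was lower relative to that median by -2.64. The blood-type and Siglecf contrasts each contain the other state, so they are not independent. Summed macrophage markers (7 genes, C1qa at 0 by the gate and the other 6 detected) stood at 4316, 4989 and 598 CPM in the Siglecf state and at 358, 1574 and 1208 CPM in the blood-type state. Within neutrophil clusters alone, Siglecf-state S100a8 stood at 10141, 12961 and 8104 CPM and blood-type S100a8 at 142494, 102723 and 110194 CPM.

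The Cxcl3 and interferon states depended on what they were compared with. In the Cxcl3 state 1 of 6 members passed, S100a11 at -0.49 ± 0.16 (adjusted p = 0.0298), where 20.2% of genes passed (14.6% higher and 5.62% lower). In the interferon state none of the 6 passed, at an unadjusted p under 0.05 none as well and none with DESeq2, where 10.6% of genes passed (9.81% higher and 0.798% lower). The mean of the other states holds the blood-type state. With that state left out, an alternative chosen after seeing the data, S100a8 was higher in the Cxcl3 state by 1.01 ± 0.10 (adjusted p = 1.14e-09) and in the interferon state by 0.86 ± 0.10 (3.73e-08). S100a9 was then higher by 0.68 ± 0.09 and 0.70 ± 0.09, S100a6 by 0.81 ± 0.17 and 0.75 ± 0.18, and S100a11 by 0.46 ± 0.10 and 0.82 ± 0.10, all past the threshold. S100a4 was lower in the Cxcl3 state (-1.25 ± 0.41, adjusted p = 0.0204).

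**Figure D3:**
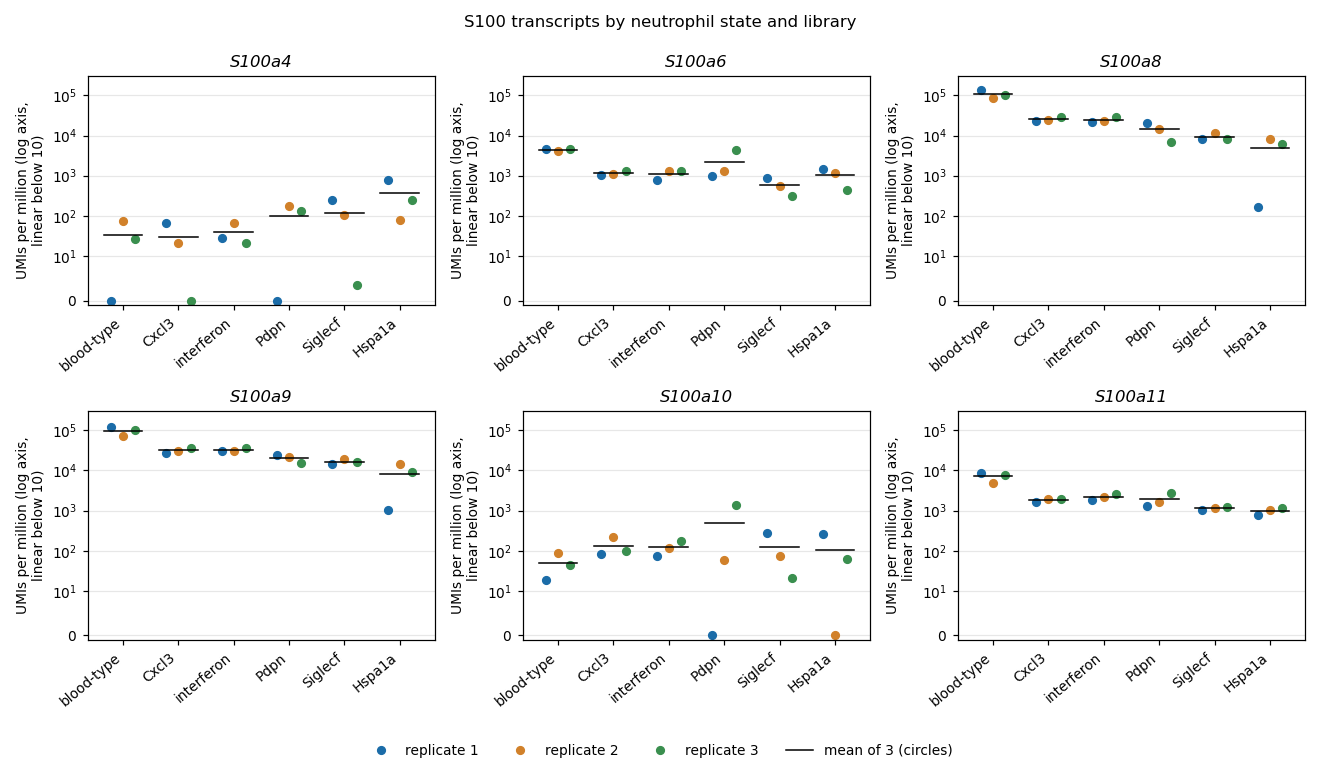
CPM (log axis, linear below 10) of each of the 6 genes in 6 neutrophil states, 1 circle per library and the mean of 3 as a line. S100a6, S100a8, S100a9 and S100a11 are highest in the blood-type state of all 3 libraries among the 4 tested states, while S100a4 and S100a10 do not exceed 271 CPM in those states.

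The untested states gave values only. S100a8 stood at 21005, 14666 and 6818 CPM in the Pdpn state (8, 15 and 16 barcodes). In the Hspa1a state (4, 9 and 8 barcodes) it stood at 170, 8391 and 6050 CPM. Macrophage markers summed to 1448, 15306 and 8108 CPM in the Hspa1a state, from only 2 of the 7 genes. C1qa (0 by the gate), C1qb, C1qc, Ms4a7 and Mrc1 had no UMI there. Clusters were larger. A cluster of 167 barcodes with Mgarp and Hspa1a among its 5 leading genes (by fold over the other neutrophil clusters) held S100a8 at 4658 ± 699 CPM, S100a9 at 9440 ± 2788 and S100a6 at 83.5 ± 37.0, and a cluster of 323 barcodes with Pdpn, Plau and Pla1a among them held S100a8 at 10639 ± 659, S100a9 at 18641 ± 1421 and S100a6 at 1114 ± 263. The cluster with Retnlg, Ngp and Camp among them (1137 barcodes) held S100a8 at 61221 ± 13034, S100a6 at 2308 ± 85 and S100a11 at 4486 ± 754 CPM. S100a8 stood at 24965, 23542 and 28462 CPM in the cluster with Cxcl3 among its leading genes (1613 barcodes). In the interferon cluster, with Ifit1 among them (505), it stood lower, at 11298, 15678 and 14696 CPM. In the cluster led by Ltc4s (2437) it stood at 10052, 11560 and 7900 CPM. The cluster differences were not tested.

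Calprotectin transcripts made up a widely varying share of each neutrophil. S100a8 and S100a9 together took a median of 2.77%, 3.77% and 2.97% of a neutrophil's UMIs in replicates 1 to 3, with a maximum of 50.2%. In the blood-type state the medians were 25.1%, 16.5% and 22.0%, and in the Siglecf state 1.07%, 1.88% and 1.21%. The share was under 1% in 27.1%, 21.6% and 27.5% of all gated neutrophils, in 50%, 35.5% and 42.9% of the Siglecf state and in 0.0%, 7.48% and 1.30% of the blood-type state. At the other end, 66.7%, 44.9% and 59.7% of blood-type barcodes had at least 20% of their UMIs from the pair. No gated T cell reached that share, and 4 gated macrophages did.

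**Figure D4:**
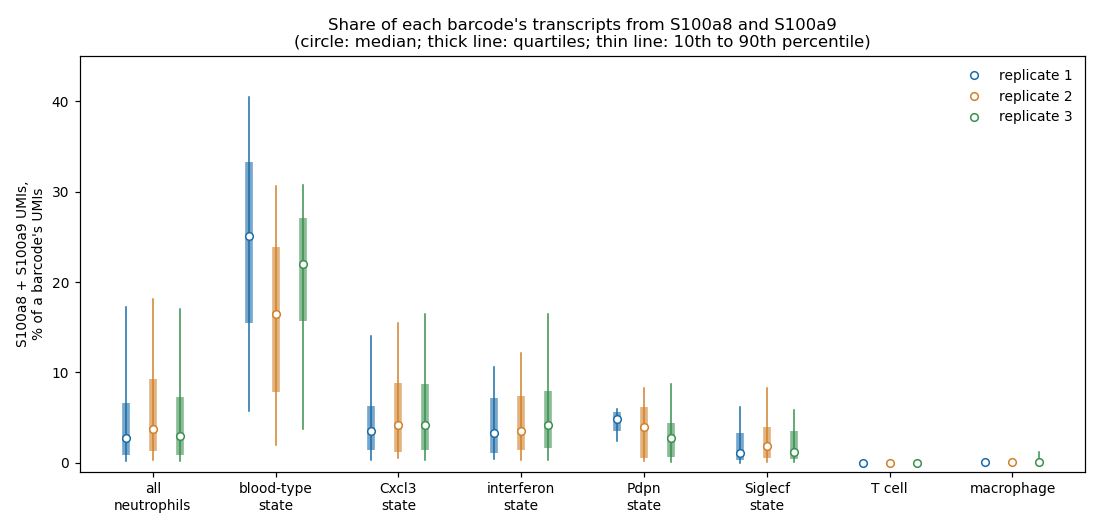
Percent of each barcode's UMIs from S100a8 and S100a9 in all neutrophils, 5 neutrophil states, T cells and macrophages, per library, with the median as a circle, the quartiles as a thick line and the 10th to 90th percentile as a thin line. Medians of the blood-type state lie between 16.5% and 25.1%, and those of the Siglecf state between 1.07% and 1.88%.

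The balance within the pair shifted with the state. S100a8 UMIs per S100a9 UMI were 0.878, 0.871 and 0.789 in neutrophils, and counting intervals were narrow (0.862 to 0.894 in replicate 1, 95%, counting error only). The ratio was 1.15, 1.20 and 1.04 in the blood-type state, 0.853, 0.797 and 0.797 in the Cxcl3 state, 0.727, 0.774 and 0.762 in the interferon state and 0.577, 0.609 and 0.487 in the Siglecf state. The ranges of these 4 states did not overlap, and the order was the same in each library. No test of the ratio was run. In clusters the ratio was 0.952 ± 0.086 in the Retnlg cluster, 0.857 ± 0.013 in the Cxcl3 cluster, 0.610 ± 0.036 in the interferon cluster, 0.589 ± 0.051 in the cluster led by Ltc4s and 0.512 ± 0.121 in the Mgarp cluster. The ratio was 0.855, 0.814 and 0.818 in macrophages, overlapping all neutrophils. It was 0.655, 0.757 and 0.865 in T cells, from 580 to 927 UMIs of the pair per library.

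**Figure D5:**
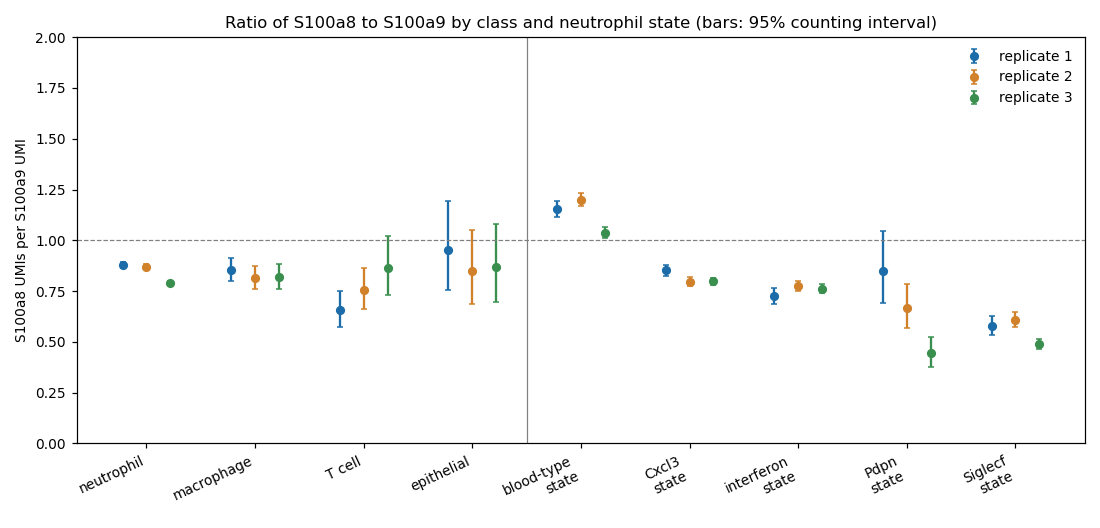
S100a8 UMIs per S100a9 UMI in 4 cell classes and 5 neutrophil states, 1 point per library with its 95% counting interval, and a dashed line where both genes are equal. The blood-type state lies above 1 in all 3 libraries and the Siglecf state at or below 0.609.

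Among neutrophils, barcodes rich in S100a8 were rich in S100a9. With each barcode thinned to 600 UMIs (627, 1034 and 1182 barcodes), Pearson's r across barcodes was 0.850, 0.830 and 0.834 in replicates 1 to 3. S100a8 went with S100a11 at 0.460, 0.373 and 0.421 and with S100a6 at 0.420, 0.325 and 0.387, while for S100a8 and S100a4 r lay between -0.156 and 0.028. Barcodes of a library share depth, library and state, and a raised share of 1 abundant transcript lowers that of others, so these values are a description.

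The genes that meet S100 proteins were read from lists, of which the 3 largest called differences from macrophages are named. Of 8 receptors tested (of 10 listed), 5 were higher in neutrophils than in macrophages and none was lower, where 29.5% of all genes were higher and 30.1% lower, with a median log2 difference of 0.88 against -0.01 over all genes. Cd33, reported as a receptor of S100A9, was higher by 1.98 ± 0.19, Tlr4, the receptor of calprotectin, by 1.86 ± 0.24, and Cd69 by 1.19 ± 0.29. Of 11 intracellular partners tested (of 14), 4 were higher and 5 lower, close to the share over all genes, led by Anxa5 (-2.83 ± 0.20), Tubb5 (-1.89 ± 0.18) and Ahnak (-1.75 ± 0.24). Of 10 transcription factors tested (of 12), 7 were higher and 1 was lower: Cebpb (2.99 ± 0.14) and Cebpe (2.71 ± 0.36) were higher and Cebpa (-3.21 ± 0.20), which acts earlier in the granulocyte line, was lower. From a list of 15 other S100 genes and relatives, which also holds the binding protein S100pbp, 4 genes were tested. Of these S100a16 was higher (3.19 ± 1.20) and S100a1 lower (-0.66 ± 0.21). S100a16 rests on few counts, with 132 UMIs over the 3 libraries against 2347 for S100a1.

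In the blood-type state 2 of 7 receptors, 4 of 9 partners and 2 of 6 transcription factors were higher and none was lower, where 13.6% of all genes were higher and 5.85% lower. The receptors' median log2 difference was -0.23 against -0.04 over all genes. The following were picked after their values were seen. Anxa1, the partner of S100a11, was higher by 2.76 ± 0.20, Anxa2, the partner of S100a10, by 1.5 ± 0.19, and Tlr2 by 1.74 ± 0.31. In the Siglecf state 4 of 7 receptors, 4 of 9 partners and 3 of 6 transcription factors were lower, and 1 partner was higher, where 26.4% of all genes were lower and 24.9% higher. The medians were -0.76, -0.60 and -0.91, against 0.01 over all genes. Tlr2 differed by -3.67 ± 0.38, Tlr4 by -2.55 ± 0.43, Anxa1 by -1.69 ± 0.24 and Cebpb, a factor known to act on both calprotectin genes, by -1.51 ± 0.15. S100a1 (1.88 ± 0.41) and S100a13 (0.48 ± 0.19), the 2 other S100 genes tested there, were higher, opposite to the 4 members.

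The genes most like each member were taken from Pearson's r of log2 CPM over 21 sums (7 classes in 3 libraries). They were ranked among the genes tested, leaving out predicted, ribosomal and mitochondrial genes and the other members. S100a8 and S100a9 were most like G0s2 (r = 0.961 and 0.967), a lipase inhibitor of neutrophils, and Gadd45b (0.947 and 0.966), and reached 0.974 with each other. S100a4 was most like Gpr132 (0.871) and Vim (0.867), the intermediate filament gene of mesenchymal and haematopoietic cells. S100a10 was most like Ywhaq (0.899) and Ndufa4 (0.893), S100a11 like Mdh2 (0.827) and Stard10 (0.817), and S100a6 like Snrpd3 (0.793) and Tmem258 (0.761). The points share 3 libraries, and the values are a description.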

How the data were processed

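Droplet single-cell RNA libraries were deposited as UMI count matrices, with barcodes already filtered by the authors (at least 500 UMIs each). Cell Ranger, Seurat and mm10 are named per the submitters' processing notes, and for the versions the entry is: not given in the sources used here. Of 14336 barcodes 14226 were kept, after removing those that had fewer than 200 genes (22) or a mitochondrial share above 10% (107). Gates, states and tests are as described above. UMIs were summed per class or state and library where each library had at least 20 barcodes, and fitted with edgeR 4.0.16 (TMM, filterByExpr, quasi-likelihood, Benjamini-Hochberg over all genes) in R 4.3.3, with the library as a block, since the sums compared come from the same libraries. SE is the log2 change over the root of F. Clusters came from scanpy 1.11.5 (Leiden, resolution 1, 2000 variable genes without S100 genes, 30 components, 15 neighbours). Barcodes with markers of several classes were left out as possible doublets. The doublet caller Scrublet marked 1 barcode and so did not work, and leaving out its 560 highest scores was an alternative. Intervals cover counting error only. Tested on simulated data, the neutrophil against macrophage fit (7136 genes) recovered 97% of 2-fold and 100% of 4-fold changes, and the blood-type fit (2739 genes) 80% and 100%, with 7.94% and 4.26% false calls. The simulation gave all groups the same proportions and no library effect, and changed 200 genes, none of low count. In the real neutrophil against macrophage contrast 59.5% of genes passed, so these rates do not carry over to it or to members with few UMIs.

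Members and gene lists were chosen with earlier results of these data known. Genes named are the members, up to 3 called genes per list with the largest change between neutrophils and macrophages, and genes among the 3 most like each member. Anxa1, Anxa2, Tlr2, Tlr4, Cebpb, S100a1 and S100a13 in the states, and the cluster genes, were picked after their values were seen. Promoters came from RefSeq on GRCm38.p6 and loci from GENCODE. Alternatives were library totals, the pair left out of the totals, DESeq2 1.42.0, no filter, no block, at least 2 marker UMIs, stricter cell filters (500 genes, 5% mitochondrial UMIs) and leaving out each replicate. A further gene of the blood-type list is not reported here. The keratin gate, the fit without the blood-type state and the restriction to neutrophil clusters were chosen after seeing the data.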

Additional observations from a re-analysis of the deposited data

How the results depend on the processing

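The calls of S100a6, S100a8, S100a9 and S100a11 in the blood-type and Siglecf states held under all 11 and 13 alternatives reported for them. The number of members called in the Cxcl3 state (1) became 0 with DESeq2 and with no replicate block, 2 with no filter, with at least 500 genes, without the highest Scrublet scores and inside neutrophil clusters, and 5 without the blood-type state, and ran from 0 (without replicate 3) to 2 (without replicate 1). In the interferon state (0) it became 3 with at least 500 genes, 1 inside neutrophil clusters and 4 without the blood-type state, and ran from 0 to 1 (without replicate 1). Signs changed in the Cxcl3 state for S100a8 with no filter (0.032), for S100a6, S100a8, S100a9 and S100a11 with at least 500 genes (0.62, 0.67, 0.38, 0.34) and without the blood-type state (0.81, 1.01, 0.68, 0.46). In the interferon state the same 4 changed sign with at least 500 genes (0.70, 0.85, 0.74, 0.76) and without the blood-type state (0.75, 0.86, 0.70, 0.82), S100a11 with no filter (0.0015), S100a6 without replicate 1 (0.020; lowest -0.47, without replicate 3), S100a10 without replicate 3 (-0.23; highest 1.05, without replicate 1), and S100a4 with DESeq2 (0.24), no filter (0.12), at least 2 UMIs (0.76), at least 500 genes (0.23), without replicate 1 (0.68; lowest -0.32, without replicate 3) and without the blood-type state (0.18). Siglecf-state S100a10 turned to 0.015 (library totals), 0.33 (at least 2 UMIs) and 0.32 (without replicate 3), and blood-type S100a4 to -0.091, -1.26 and, without replicate 2, -0.29. Leaving out 1 replicate each, these ranged from -2.01 to 0.32 and from -0.29 to 1.18. Against cDCs S100a6 was -0.10 with at least 500 genes, and against Epcam-gated barcodes S100a4 ran from -0.22 (without replicate 1) to 0.94 (without replicate 3). Among gated barcodes in same-named clusters, S100a4 against cDCs was 0.088 and S100a8 in monocytes against macrophages 0.14. The cause was not tested. All genes called moved from 584 to 1035 (library totals) and 264 (without replicate 3) in the blood-type state, from 607 to 962 (without the blood-type state) and 270 (without replicate 3) in the Cxcl3 state, from 319 to 634 and 186 in the interferon state, from 1544 to 911 (without replicate 3) in the Siglecf state, and from 1163 to 687 and 760 (without replicates 1 and 2) between monocytes and macrophages. With library totals, calls higher and lower in neutrophils were 1875 and 3008 against macrophages, 1300 and 2163 against monocytes, 2175 and 2890 against T cells and 2078 and 3301 against Epcam-gated barcodes. With at least 2 marker UMIs S100a8 and S100a9 exceeded macrophages by 7.10 and 7.02. Over all alternatives S100a8 ran from 5.66 to 7.68 against cDCs and from 6.84 to 8.27 against Epcam-gated barcodes, and S100a4 from -4.70 to -3.24 against T cells and from -4.69 to -3.17 against monocytes. The cDC contrast at 2 UMIs and the blood-type state at 500 genes were not run, having under 20 barcodes in a library. The fits of the Cxcl3, Siglecf and interferon states at 500 genes therefore held no blood-type state either. Their sign changes cannot be told apart from those of leaving that state out. S100a4 rests on few UMIs in neutrophils, 25 in 2977 gated barcodes inside neutrophil clusters.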
